A study of Mus musculus with 12 samples.

Results

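The genes described here code for the enzymes of cholesterol and fatty acid synthesis, the proteins that control those enzymes, and 3 sterol transport proteins. They were chosen by name, as 37 mouse symbols taken from knowledge of the pathway: 18 sterol synthesis enzymes, 11 fatty acid enzymes, 5 regulators and 3 transport genes. Earlier results of these data were known when the list and its branches were chosen. The array table held 33 of the 37, with no row under the symbols Hmgcs1, Fdft1, Acaca and Me1. Signal was above background on at least 2 arrays for 29, which are part of the 13190 genes tested in the whole series. Mvk, Idi1, Elovl6 and Abca1 were on the array but too dim to test. By branch, tests covered 14 sterol synthesis enzymes, 8 fatty acid enzymes, 5 regulators and 2 transport genes.

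RNA was measured on 12 Illumina mouse bead arrays. PtC+ cells bind phosphatidylcholine, a membrane lipid that B-1 cells often see as a self antigen, and PtC- cells do not. Cells labelled TCL1-192 were sampled from the spleen and from the peritoneal cavity, each with 2 PtC+ arrays and 2 PtC- arrays, which makes 4 groups. The peritoneal cavity was also sampled in young TCL1 mice and in wild type mice, with a lone array for each PtC class. TCL1 is an oncogene, and B cells of mice that carry it as a transgene grow into a leukaemia resembling human chronic lymphocytic leukaemia (CLL). The labels give every group the same C3H/C57BL/6 mixed background and call all samples CLL cells, the wild type ones included. The sources used here do not give the meaning of 192, the driver of the TCL1 transgene, the age of the young mice in numbers, the sorting gates or the animals behind each array. The study set out to compare spleen and peritoneum for genes tied to the response to autoantigen.

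Cholesterol is built from acetyl-CoA through mevalonate, squalene and lanosterol, and fatty acids are built from the same acetyl-CoA and then lengthened and desaturated. Both branches answer to membrane-bound transcription factors made from Srebf1 and Srebf2. The protein Scap carries these factors to the Golgi, where they are cut free, and the Insig proteins hold them back in the endoplasmic reticulum when sterols are plentiful. Many synthesis enzymes, and Insig1 itself, are induced when cell sterol runs low, whereas the sterol exporter Abcg1 is induced when sterols build up. Dividing lymphocytes draw on both branches for new membrane.

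The PtC- peritoneal TCL1-192 array of replicate 2 stood apart, with 10711 probes above background against 13825 to 15192 on the other 11 arrays. Its background was raised, with a mean raw signal of 205 for undetected probes, against 93.1 to 114 on the others. It detected 18 of the 29 genes tested, where the others detected 24 to 27. Among the 11 genes it missed, Mvd, Lss, Dhcr7 and Stard4 were detected on all other 11 arrays. Macrophage markers had summed signals of 3210 to 4200 in the 4 spleen arrays, against 21753 to 33378 in the 4 TCL1-192 peritoneal arrays, 28946 and 30546 in young TCL1 and 27851 and 39144 in wild type. Of 18 macrophage markers tested, 14 were lower in spleen than in TCL1-192 peritoneum, and 12, among them Lyz2, Csf1r and C1qa, were below background on every spleen array. Erythroid markers summed to 1154 to 1831 in spleen and 19606 to 33471 in TCL1-192 peritoneum, with 3 of 5 lower in spleen. Dcn, a stromal marker, was below background on every spleen array and lower there than in TCL1-192 peritoneum. Neutrophil markers went the other way, with 2 of 3 higher in spleen. They summed to 125 to 413 in spleen and 98.1 to 106 in TCL1-192 peritoneum, where all 3 were below background on every array. Of 4 T cell markers tested, 1 was lower in spleen. B cell markers, such as Cd79a, summed to 32441 to 39877 in TCL1-192 spleen, 29642 to 34952 in TCL1-192 peritoneum, 43425 and 43928 in young TCL1 and 41107 and 42329 in wild type. In bulk RNA, fewer cells of a type and less RNA per cell cannot be told apart.

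**Figure D1:**
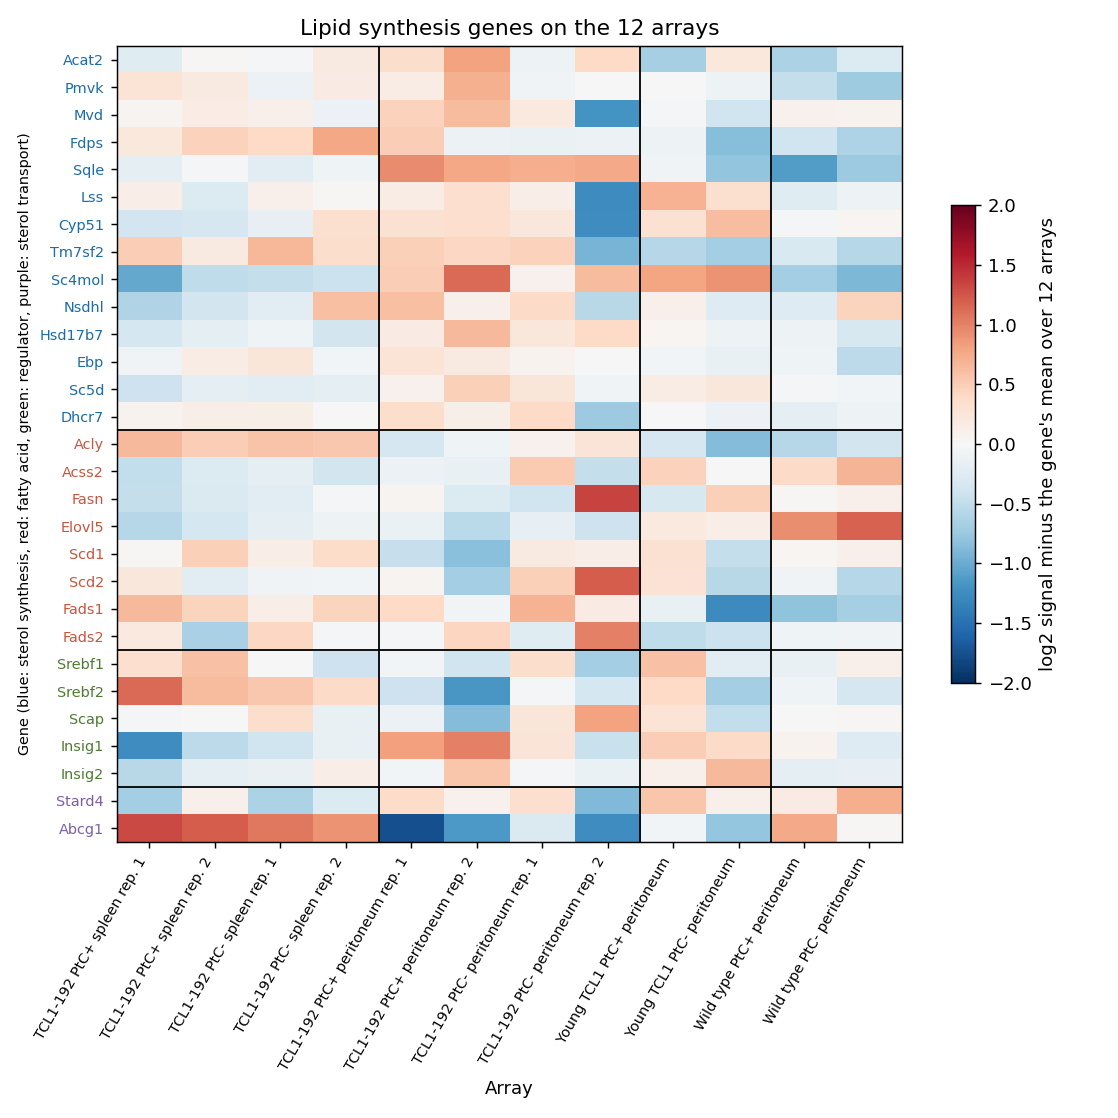
Signal of the 29 genes tested on each of the 12 arrays, as log2 signal minus the gene's own mean over the arrays; red is above and blue below that mean, and black lines separate the sample sets and the branches. The 4 spleen columns are blue for Sc4mol and Insig1 and red for Srebf2 and Abcg1, and Mvd, Lss, Cyp51 and Dhcr7 are blue on PtC- peritoneum replicate 2.

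Promoter windows of 300 bases (250 before the transcription start, 50 after) are shown for 4 of the genes that differed between spleen and peritoneum. They were searched for the motifs named below. Sc4mol (now Msmo1), Hsd17b7 and Insig1 were lower in spleen and Srebf2 was higher. The sequences are from RefSeq, build GRCm38.p6, written from 5′ to 3′ on the gene's own strand, and capitals mark the NF-Y box CCAAT or its reverse complement ATTGG.
Sc4mol (Msmo1), chr8:64733529-64733828, minus strand: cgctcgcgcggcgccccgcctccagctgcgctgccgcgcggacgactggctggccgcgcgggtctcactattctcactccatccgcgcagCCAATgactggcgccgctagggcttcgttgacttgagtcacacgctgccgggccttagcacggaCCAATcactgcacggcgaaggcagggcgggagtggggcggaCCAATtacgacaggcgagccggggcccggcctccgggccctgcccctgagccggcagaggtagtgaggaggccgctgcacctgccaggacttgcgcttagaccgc
Hsd17b7, chr1:169969156-169969455, minus strand: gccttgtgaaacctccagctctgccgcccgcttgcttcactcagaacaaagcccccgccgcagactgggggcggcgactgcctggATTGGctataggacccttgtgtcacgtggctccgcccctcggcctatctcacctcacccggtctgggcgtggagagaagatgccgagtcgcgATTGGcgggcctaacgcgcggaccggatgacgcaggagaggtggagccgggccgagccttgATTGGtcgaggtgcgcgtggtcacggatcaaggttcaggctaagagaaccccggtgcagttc
Insig1, chr5:28071162-28071461, plus strand: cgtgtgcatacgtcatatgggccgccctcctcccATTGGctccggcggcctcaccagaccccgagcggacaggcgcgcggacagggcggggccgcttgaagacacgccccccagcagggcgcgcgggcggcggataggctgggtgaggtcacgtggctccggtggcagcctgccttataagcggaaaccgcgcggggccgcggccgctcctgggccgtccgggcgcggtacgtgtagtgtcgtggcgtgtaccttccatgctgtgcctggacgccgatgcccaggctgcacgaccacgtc
Srebf2, chr15:82147019-82147318, plus strand: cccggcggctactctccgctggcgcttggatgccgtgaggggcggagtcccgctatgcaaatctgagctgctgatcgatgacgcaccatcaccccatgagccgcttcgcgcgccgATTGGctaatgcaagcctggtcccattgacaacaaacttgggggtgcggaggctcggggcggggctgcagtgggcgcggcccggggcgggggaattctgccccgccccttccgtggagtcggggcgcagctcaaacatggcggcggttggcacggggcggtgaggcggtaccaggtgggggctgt

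The windows of Sc4mol and Hsd17b7 each held 3 NF-Y boxes, and those of Insig1 and Srebf2 held 1 each. Windows were found for 26 of the 33 genes on the array. Searched on both strands, CCAAT was in at least 1 window of 13 of 14 sterol synthesis genes, 4 of 6 fatty acid genes and 4 of 5 regulators, against 41.1% of 27025 genes with a window. The GC box GGGCGG was in 13 of 14 sterol synthesis genes, 3 of 6 fatty acid genes and 5 of 5 regulators, against 38.2% of all genes. Genes with several windows have more room for a match. By window, CCAAT was in 76.5% of sterol synthesis, 66.7% of fatty acid and 50% of regulator windows, against 37.4% of all windows. GGGCGG was in 82.4%, 50% and 80% of these windows, against 35.7% of all. The 27025 genes include genes not tested on these arrays, and no set matched for expression was searched. The E-box CACGTG was in 7 of the 26, Hsd17b7, Insig1 and Elovl5 among them, against 8.09% of all genes. A sterol regulatory element spelled TCACNCCAC was in none of the 26, and in 1.44% of all genes. It was present in the window of Hmgcs1, which has no row on the array. Matches describe these windows only, no mismatch was allowed, and matches of different motifs could overlap. No windows are printed for Sqle, Fdps, Fads1, Scd1, Scd2, Stard4 and Abcg1.

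In spleen, TCL1-192 cells had less RNA of 3 sterol enzymes and of Insig1 than in the peritoneum, and more of Acly, Srebf2 and Abcg1. These were 7 of 29 genes (24.1%) past an adjusted p of 0.05 in limma's moderated test over all genes, against 26.7% of all genes. By direction, 3 genes were higher (15.5% of all genes were) and 4 were lower (11.1% of all genes were). Every spleen array lay above every peritoneal one for 3 genes and below for 4, where 16.9% and 12.7% of all genes did so. The members' share of calls was near that of all genes.

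Among the sterol enzymes, Sqle had log2 signals of 7.81 and 7.98 on the PtC+ and 7.80 and 7.92 on the PtC- spleen arrays, against 8.95 and 8.77 on the PtC+ and 8.73 and 8.76 on the PtC- peritoneal arrays. Sqle codes for squalene epoxidase, an oxygen-using control step of the pathway, and its 4 spleen values lay together well below the 4 peritoneal ones. The mean was 7.88 ± 0.09 in spleen and 8.80 ± 0.10 in peritoneum (SD, n = 4 each), a log2 difference of -0.92 ± 0.13 (SE, adjusted p = 0.00284) or 1.90-fold lower. Sc4mol, which takes methyl groups off the sterol ring, read 6.98, 7.49, 7.52 and 7.56 in spleen, against 8.49, 9.13, 8.08 and 8.63 in peritoneum. The groups did not overlap, and the log2 difference was -1.19 ± 0.22 (SE, adjusted p = 0.00825), 2.29-fold lower. Hsd17b7, a reductase of the same demethylation sequence, read 7.99, 8.16, 8.25 and 7.97 in spleen, against 8.50, 8.98, 8.57 and 8.74 in peritoneum. Its difference was smaller, -0.61 ± 0.16 (SE, adjusted p = 0.0321), again with no overlap.

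The other 11 sterol enzymes tested did not pass in this comparison, and their log2 differences ran from -0.43 for Sc5d, a desaturase late in the pathway, to 0.43 for Fdps, which makes farnesyl diphosphate. Over the 14 the median log2 difference was -0.07, with 5 above 0, against a median of -0.02 and 48.3% above 0 over all genes. Mvd, Lss, Cyp51, Tm7sf2 and Dhcr7 read 6.41, 5.54, 6.78, 4.89 and 5.84 on the raised-background array, below each gene's other 3 TCL1-192 peritoneal values. Without that array, 1 of 14 lay above 0 and the median was -0.29 (all genes -0.02), with Sc5d at -0.50. That fit also loses the spread of the array's pair, so its calls are not counted here. Sc5d was below background on all 4 spleen arrays, so its spleen signal is only a bound. With a normexp correction and median centring in place of neqc, the direction of the sterol median turned, with 9 of 14 above 0 and a median of 0.14, equal to the 0.14 of all genes.

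Of the fatty acid enzymes, Acly alone was called. Acly codes for ATP citrate lyase, which makes the acetyl-CoA that both branches use. It read 13.64, 13.48, 13.56 and 13.53 in spleen, against 12.65, 12.91, 13.08 and 13.25 in peritoneum, so that all spleen values were higher and much closer together. The log2 difference was 0.58 ± 0.13 (SE, adjusted p = 0.0183), 1.49-fold higher. Scd1, the stearoyl-CoA desaturase, read 13.15, 13.61, 13.26 and 13.49 in spleen and 12.67, 12.30, 13.31 and 13.26 in peritoneum. Its groups overlapped, since the PtC- peritoneal arrays were as high as the spleen ones, and 0.49 ± 0.16 (SE) did not pass (adjusted p = 0.0647). The other 6 fatty acid enzymes ran from -0.44 for Fasn, the fatty acid synthase, to 0.12 for Fads1, and the branch median was -0.14.

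The regulators split. Srebf2 read 11.28, 10.78, 10.69 and 10.54 in spleen, against 9.74, 8.99, 10.11 and 9.80 in peritoneum. The groups did not overlap, and the log2 difference was 1.16 ± 0.21 (SE, adjusted p = 0.00853), 2.24-fold higher. Its other probe, tested among single probes, gave 0.43 ± 0.15 (SE) and did not pass (adjusted p = 0.0758), so the probes of Srebf2 disagree on size. Insig1 read 5.27, 5.99, 6.11 and 6.37 in spleen and 7.34, 7.52, 6.77 and 6.07 in peritoneum. The PtC+ peritoneal arrays were the highest, and of the PtC- ones only replicate 2, the raised-background array, where Insig1 was undetected, reached into the spleen range. The log2 difference was -0.99 ± 0.23 (SE, adjusted p = 0.0195). Srebf1 read 5.85, 6.11, 5.51 and 5.11 in spleen and 5.47, 5.12, 5.87 and 4.84 in peritoneum, near background, with an uncalled difference of 0.32 ± 0.25 (SE, adjusted p = 0.381). Scap differed by 0.03 ± 0.23 (SE) and Insig2 by -0.27 ± 0.19 (SE) on the probe used. The other detected probe of Insig2 gave -0.77 ± 0.14 (SE, adjusted p = 0.00872 over single probes), with 6.51 to 6.87 in spleen and 6.99 to 7.89 in peritoneum.

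Abcg1, which exports cholesterol from the cell, differed most among the 29. It read 8.31, 8.21, 8.05 and 7.89 in spleen, against 5.23, 5.85, 6.71 and 5.75 in TCL1-192 peritoneum, where 2 of 4 arrays detected it. The log2 difference was 2.23 ± 0.25 (SE, adjusted p = 0.00133), and with 2 peritoneal arrays below background its size is not exact. Macrophage markers, summed above, were lower in spleen. Stard4, which carries cholesterol between membranes, read 5.71 to 6.49 in spleen and 5.51 to 6.76 in peritoneum and was not called.

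Sc4mol, Srebf2 and Abcg1 kept their spleen calls in all 16 alternatives run. Sqle lost its call under the normexp correction, where its log2 difference was -0.42 (adjusted p = 0.0990). Hsd17b7, Insig1 and Acly lost theirs when single arrays were left out, with adjusted p up to 0.592, 0.0797 and 0.0748 over all alternatives, Hsd17b7 also under normexp and Insig1 with the mean of its probes. Leaving out single arrays moved the count of members called along with that of all genes. Proliferation markers summed to 15345 to 25759 in spleen and 12363 to 16920 in TCL1-192 peritoneum. Of 17 tested, 3 were higher in spleen and 0 lower, where 15.5% and 11.1% of all genes were. The part of macrophage, erythroid, stromal, neutrophil and T cell RNA and of proliferation in these differences was not tested.

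**Figure D2:**
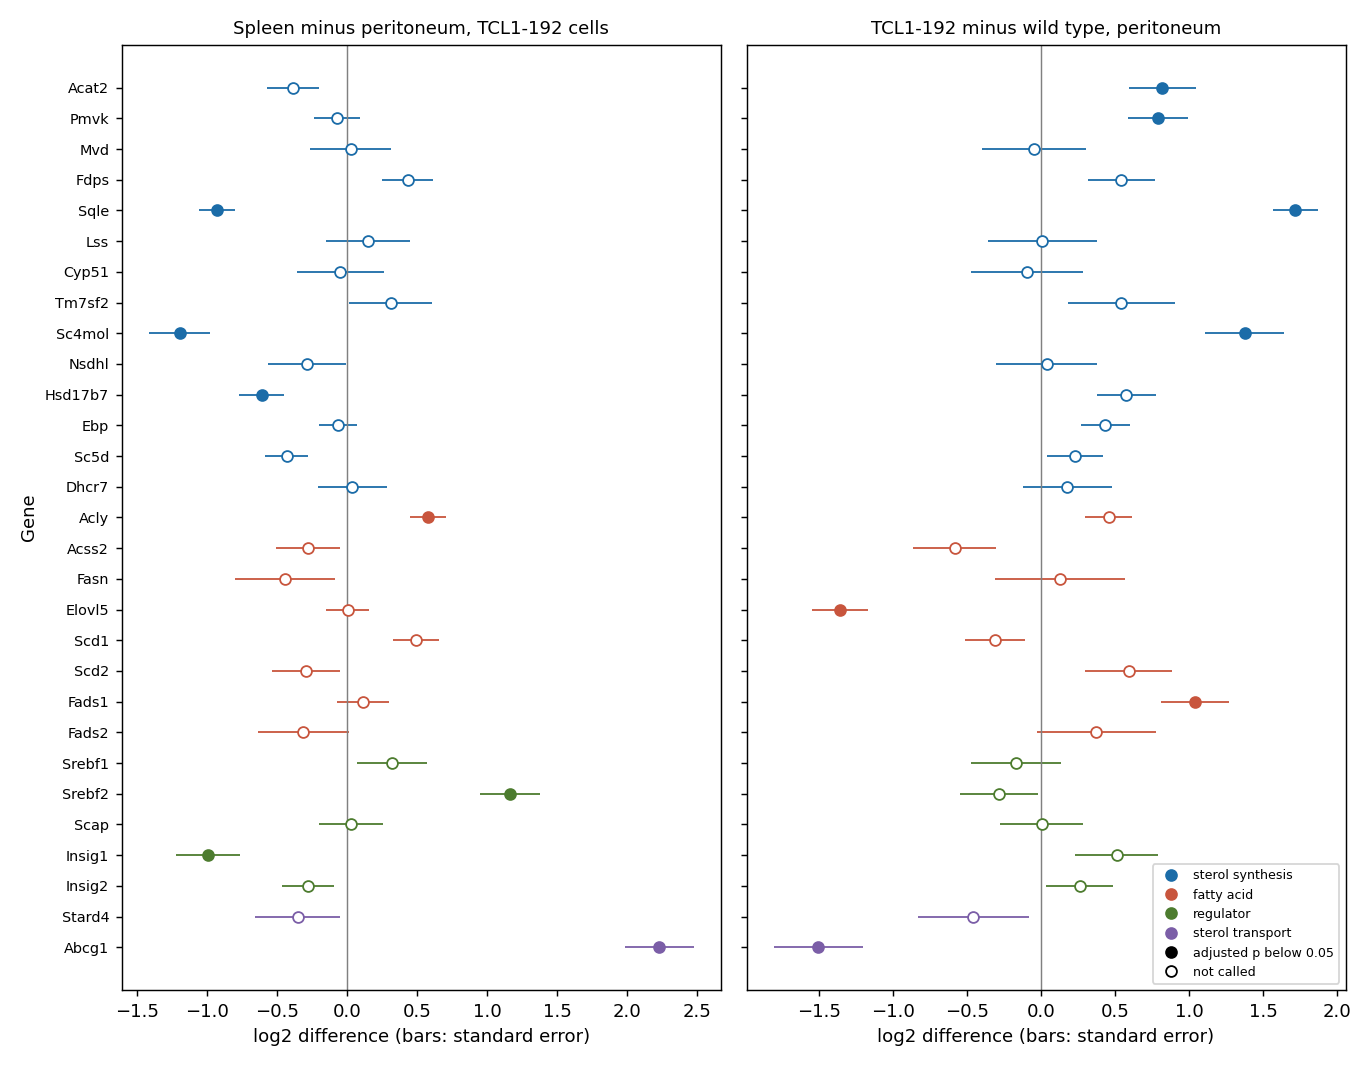
Log2 differences of the 29 genes with their standard errors, spleen minus peritoneum in TCL1-192 cells (left) and TCL1-192 minus wild type in the peritoneum (right), coloured by branch; filled points have an adjusted p below 0.05. Sqle, at -0.92 and 1.72, and Sc4mol, at -1.19 and 1.38, are filled in both panels, which share the 4 TCL1-192 peritoneal arrays.

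Within the peritoneum, TCL1-192 cells had more RNA than wild type cells of 4 sterol enzymes (Sqle, Sc4mol, Acat2 and Pmvk) and of Fads1, and less of Elovl5 and Abcg1. These were again 7 of 29 genes, against 27.4% of all genes. Higher calls numbered 5, where 11.8% of all genes were higher, and lower calls 2, where 15.6% were lower. Groups did not overlap for 10 genes that were higher and 2 that were lower, against 19.8% and 23.4% of all genes. In the sterol branch 12 of 14 lay above 0, with a median of 0.49, against 52.3% and a median of 0.03 over all genes. The fatty acid median was 0.25, with 5 of 8 above 0.

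In wild type cells Sqle read 6.89 (PtC+) and 7.28 (PtC-), below each of the TCL1-192 peritoneal values given above. The log2 difference was 1.72 ± 0.15 (SE, adjusted p = 0.000327), 3.29-fold higher. Sc4mol read 7.31 and 7.10 in wild type, also outside the TCL1-192 peritoneal range, a difference of 1.38 ± 0.27 (SE, adjusted p = 0.00961). Acat2, which joins acetyl-CoA units at the head of the pathway, read 8.25, 8.70, 7.79 and 8.30 in TCL1-192 peritoneum, against 7.26 and 7.62 in wild type. Pmvk, a kinase of the mevalonate steps, read 7.39, 7.95, 7.16 and 7.22 in TCL1-192 peritoneum, against 6.76 and 6.53 in wild type. The groups of both genes stood apart, with differences of 0.82 ± 0.22 for Acat2 (SE, adjusted p = 0.0340) and 0.79 ± 0.20 for Pmvk (SE, adjusted p = 0.0273). Fdps, Hsd17b7 and Ebp also lay above wild type on all 4 arrays, by 0.54, 0.58 and 0.43, without passing (adjusted p of 0.121, 0.0713 and 0.0953). Without the raised-background array 14 of 14 sterol enzymes lay above 0, with a median of 0.50 (all genes 0.03). Tm7sf2 and Sc5d were below background on both wild type arrays, so their wild type signals are only bounds. Under the normexp correction the median was 0.12, with 10 of 14 above 0 and all genes at -0.12.

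Of the 8 fatty acid enzymes tested, Fads1 was higher and Elovl5 lower than in wild type. Fads1, a desaturase of long polyunsaturated fatty acids, read 7.72, 7.27, 8.02 and 7.48 in TCL1-192 peritoneum, against 6.52 and 6.65 in wild type. The difference was 1.04 ± 0.23 (SE, adjusted p = 0.0158), 2.05-fold higher. Elovl5, which lengthens polyunsaturated fatty acids, read 10.94, 10.53, 10.91 and 10.66 in TCL1-192 peritoneum, against 12 and 12.24 in wild type. With no overlap, the difference was -1.36 ± 0.19 (SE, adjusted p = 0.00242), 2.56-fold lower. Acly was higher on every TCL1-192 peritoneal array than the 12.42 and 12.62 of wild type but did not pass, at 0.46 ± 0.16 (SE, adjusted p = 0.0776). Of the regulators 0 of 5 were called. Srebf1 read 5.37 and 5.62, Srebf2 read 10.07 and 9.82, and Insig1 read 6.58 and 6.25 in wild type, and the TCL1-192 minus wild type differences were -0.17 ± 0.30, -0.28 ± 0.26 and 0.51 ± 0.28 (SE). Abcg1 read 7.76 and 7.02 in wild type, above all 4 TCL1-192 peritoneal values, with a difference of -1.51 ± 0.30 (SE, adjusted p = 0.0107).

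Proliferation markers moved with this comparison: 17 of 17 tested were higher in TCL1-192 than in wild type peritoneum, with summed signals of 12363 to 16920 in TCL1-192 and 2768 and 3044 in wild type. Mast cell markers went down, 4 of 5 being lower, with sums of 137.2 to 185 in TCL1-192 against 1754 and 2549 in wild type, and Cpa3, Mcpt4, Cma1 and Kit were below background on every TCL1-192 peritoneal array. Erythroid markers summed to 19606 to 33471 in TCL1-192 peritoneum against 187.5 and 317.4 in wild type, 3 of 5 being higher, and Dcn, the 1 mesothelial or stromal marker tested, was also higher, with signals of 137.1 to 355.2 in TCL1-192 peritoneum against 32.4 and 40.8 in wild type. Of the 18 macrophage markers 4 were higher and 6 lower, and of 4 T cell markers 1 was higher and 2 lower. Their part in the lipid gene differences was not tested. Sqle, Sc4mol, Elovl5 and Abcg1 kept their calls in all 16 alternatives, and Fads1 lost its call under normexp only (adjusted p = 0.155). Acat2 and Pmvk lost theirs in 7 and 6 alternatives, with adjusted p up to 0.288 and 0.319. Here too the counts of members and of all genes called both moved when single arrays were left out.

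**Figure D3:**
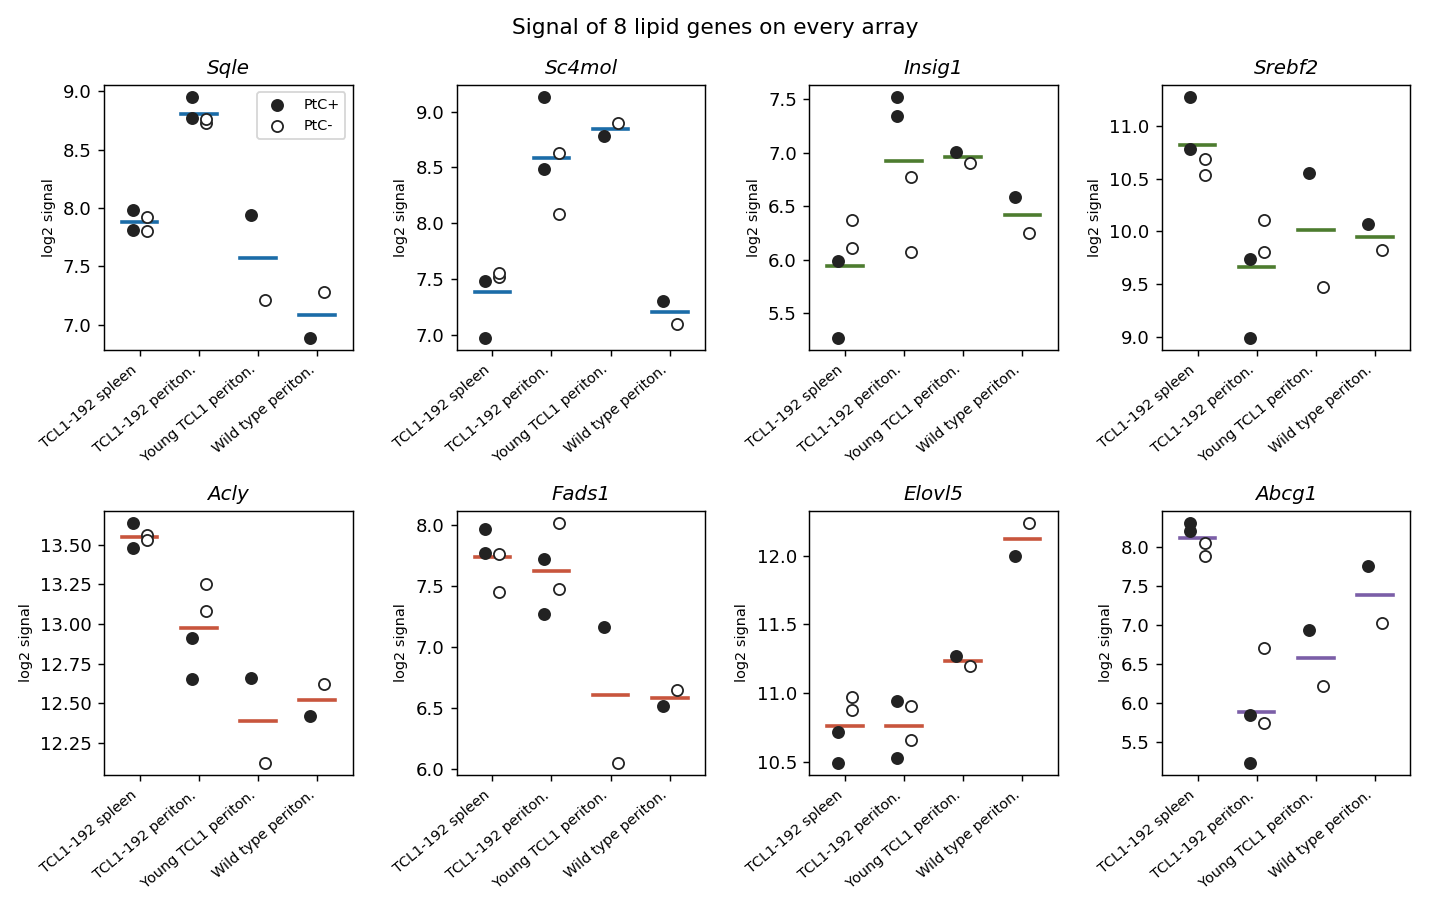
Log2 signal of 8 genes on every array, with TCL1-192 spleen, TCL1-192 peritoneum, young TCL1 peritoneum and wild type peritoneum from left to right; filled points are PtC+ and open points PtC- arrays, and bars are means. Sqle is highest in TCL1-192 peritoneum (8.73 to 8.95), Sc4mol is high in TCL1-192 and young TCL1 peritoneum, Elovl5 is highest in wild type (12 and 12.24) and Abcg1 in TCL1-192 spleen (7.89 to 8.31).

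Young TCL1 cells had no lipid gene past the threshold against wild type (0 of 29), with 1.52% of all genes called, 0.607% higher and 0.917% lower. At an unadjusted p under 0.05 there were 3 of 29, Sc4mol, Sqle and Elovl5, beside 1548 of all 13190 genes, so that the members' share was no higher than that of all genes. Sc4mol read 8.78 and 8.90 on the young TCL1 PtC+ and PtC- arrays, against 7.31 and 7.10 in wild type, a wide gap with close pairs. Its log2 difference was 1.63 ± 0.31 (SE, adjusted p = 0.0612), and it passed in 7 of the 16 alternatives (adjusted p of 0.00499 to 0.0319 there), among them both fits that left out a PtC- peritoneal array. Elovl5 read 11.27 and 11.20 in young TCL1, below the 12 and 12.24 of wild type, at -0.89 ± 0.22 (SE, adjusted p = 0.136). Sqle read 7.94 and 7.21 in young TCL1, which overlapped with wild type. Insig1 read 7.01 and 6.90, Srebf1 6.10 and 5.29, and Srebf2 10.56 and 9.47 in young TCL1, and their differences from wild type did not pass. Abcg1 read 6.94 and 6.22 in young TCL1, below both wild type values, with an uncalled difference of -0.81 ± 0.35 (SE, adjusted p = 0.428).

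Set against young TCL1, TCL1-192 peritoneal cells had 3 of 29 genes called, all higher, where 19.7% of all genes were called, 7.94% higher and 11.7% lower. Sqle was higher on all 4 TCL1-192 arrays than on both young arrays, with a log2 difference of 1.23 ± 0.15 (SE, adjusted p = 0.00216). Fads1 read 7.17 and 6.05 in young TCL1, below the 4 TCL1-192 values, with 1.01 ± 0.23 (SE, adjusted p = 0.0234). Acly read 12.66 and 12.12 in young TCL1, overlapping with the lowest TCL1-192 value of 12.65, with 0.58 ± 0.16 (SE, adjusted p = 0.0449). Sc4mol, in contrast, differed by -0.26 ± 0.27 (SE) and did not pass (adjusted p = 0.536). These contrasts share arrays with those above: for Sqle the difference from wild type was 0.49 ± 0.18 in young TCL1 and 1.72 ± 0.15 in TCL1-192 (SE), and for Sc4mol it was 1.63 ± 0.31 in young TCL1 and 1.38 ± 0.27 in TCL1-192 (SE). The Sqle call was lost with the mean of its probes (adjusted p = 0.0790). Its other tested probe was detected on 4 arrays, and the cause was not tested. Markers of other cells moved with this comparison too. Proliferation markers summed to 12363 to 16920 in TCL1-192 against 2514 and 7916 in young TCL1, 15 of 17 being higher. Erythroid markers summed to 19606 to 33471 in TCL1-192 against 502.2 and 2596 in young TCL1, 3 of 5 being higher. Mast cell markers summed to 137.2 to 185 in TCL1-192 against 1477 and 1673 in young TCL1, 4 of 5 being lower, and Dcn was higher. The part of these cells in the lipid gene differences was not tested. The Acly call was lost in 9 of 16 alternatives and the Fads1 call in 2. The counts of members and of all genes called both moved when single arrays were left out.

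PtC binding within TCL1-192 cells gave no call among the 29 in limma's test, nor among all genes (0%), and none in the test of whether it differed between spleen and peritoneum (0%). At an unadjusted p under 0.05 the counts were 2 and 4 of 29, beside 1129 and 1520 of all 13190 genes. Without PtC- peritoneum replicate 1 the members called were 4 and 7, beside 1533 and 1644 of all genes, with the raised-background array then the only PtC- peritoneal one. Of the first, Scap, the escort of the transcription factors, read 8.32 and 8.35 on PtC+ and 8.70 and 8.21 on PtC- spleen arrays, and 8.23 and 7.48 on PtC+ and 8.59 and 9.16 on PtC- peritoneal arrays, with overlap in spleen. Its difference over both tissues was -0.57 ± 0.23 (SE, adjusted p = 0.580). Scd1 differed by -0.40 ± 0.16 (SE, adjusted p = 0.580), and only its peritoneal values, given above, were apart. Of the tissue-dependent differences, that of Insig1 had the highest moderated t. Insig1 was 0.61 lower in PtC+ than PtC- spleen cells and 1.01 higher in PtC+ than PtC- peritoneal cells, on the log2 scale (0.66 higher against PtC- replicate 1 alone, Insig1 being undetected on replicate 2), and the difference between these was -1.62 ± 0.46 (SE, adjusted p = 0.409). Scd2, another stearoyl-CoA desaturase, read 7.49 and 7.05 on PtC+ and 7.20 and 7.21 on PtC- spleen arrays, and 7.32 and 6.58 on PtC+ and 7.74 and 8.48 on PtC- peritoneal arrays, a difference between tissues of 1.23 ± 0.48 (SE, adjusted p = 0.413).

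In the peritoneum the branches had opposite signs between PtC+ and PtC- TCL1-192 cells. All 14 sterol enzymes tested had a higher mean on the PtC+ arrays, the median being 0.43 on the log2 scale. All 8 fatty acid enzymes had a lower one, their median being -0.32, where 52.3% of all genes were above 0 with a median of 0.03. The array with raised background is 1 of the 2 PtC- arrays here. Against it alone, 13 of 14 sterol and 3 of 8 fatty acid enzymes lay above 0. Their medians were 0.40 and -0.62, beside 55.5% of all genes above 0 and a median of 0.08. Against the other PtC- array alone, 11 of 14 sterol enzymes lay above 0 with a median of 0.15, and 2 of 8 fatty acid enzymes lay above 0 with a median of -0.41, beside 50.3% of all genes and a median of 0.00. Of the fatty acid enzymes, only Acly, Scd1 and Scd2 were lower against each PtC- array. In spleen 4 of 14 sterol enzymes and 4 of 8 fatty acid enzymes were above 0, with medians of -0.12 and -0.05. These counts carry no test.

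**Figure D4:**
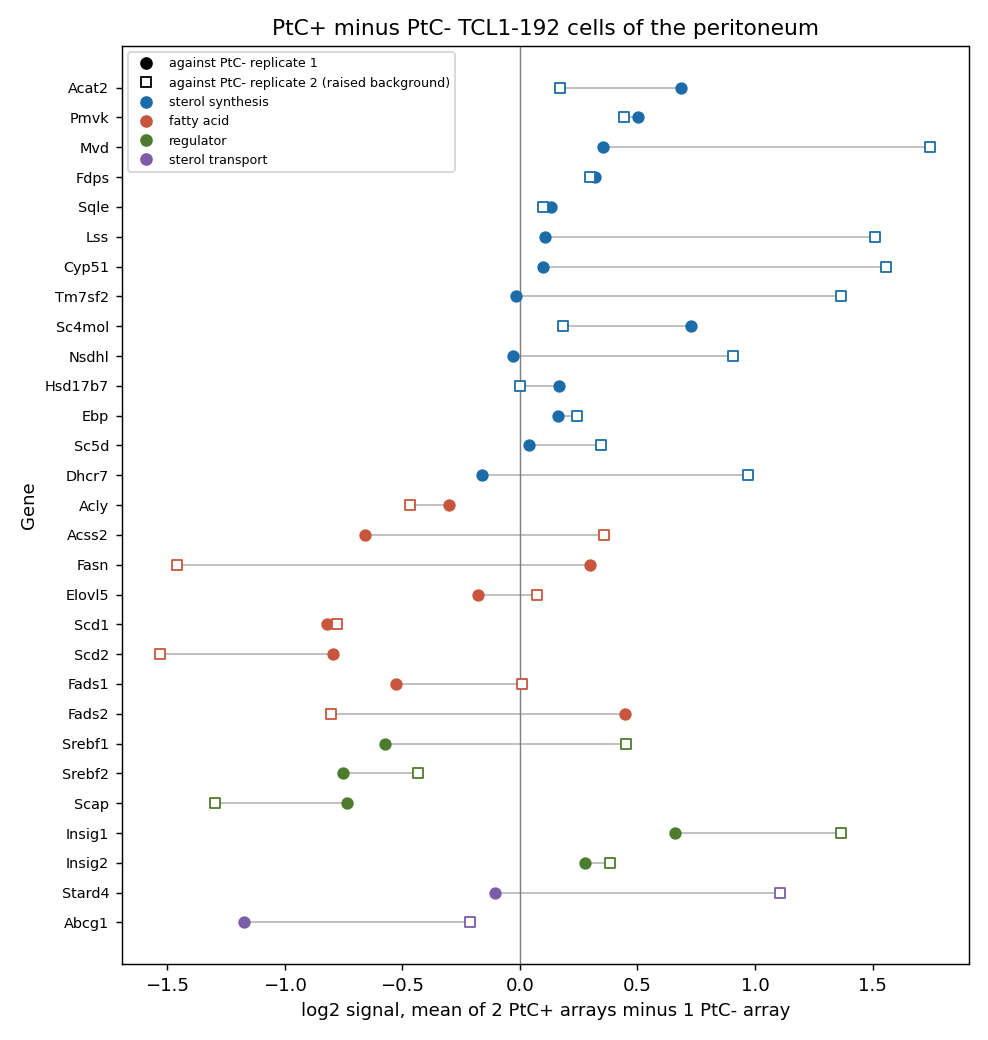
Log2 signal of PtC+ TCL1-192 peritoneal cells (mean of 2 arrays) minus PtC- cells for each gene, against PtC- replicate 1 (filled circles) and against PtC- replicate 2, the raised-background array (open squares), coloured by branch. Sterol enzymes lie mostly above 0 against both arrays (11 and 13 of 14), but the large differences of Mvd, Lss, Cyp51 and Tm7sf2 are against replicate 2 alone.

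In young TCL1 and wild type cells each PtC comparison rests on 1 array a side and has no replicate check. In young TCL1, 2 of 29 genes reached a 2-fold difference, where 8.3% of all genes did: Fads1, higher by 1.12, and Srebf2, higher by 1.09 on the log2 scale in PtC+ cells. The other detected probe of Srebf2 read 7.97 on the young TCL1 PtC+ and 8.12 on the PtC- array, without that rise. In wild type 0 of 29 did, where 2.71% of all genes did. Over the 29, 22 were higher on the PtC+ array in young TCL1 and 12 in wild type, where 50.3% and 51.2% of all genes were.

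Genes of the pathway outside the 37 were counted in the same fit, where 15.5% of all genes were higher and 11.1% lower in spleen, and 11.8% were higher and 15.6% lower in TCL1-192 than in wild type peritoneum. Of 12 other sterol genes tested, 1 was higher and 4 were lower in spleen than in TCL1-192 peritoneum, against 3 higher and 1 lower in TCL1-192 than in wild type peritoneum. Tmem97, a sterol-responsive membrane protein also known as the sigma receptor, was lower in spleen by a log2 difference of -0.61 ± 0.17 (SE, adjusted p = 0.0404) and higher than wild type by 1.49 ± 0.21 (SE, adjusted p = 0.00282). Pltp, a phospholipid transfer protein also made by macrophages, was lower in spleen by a log2 difference of -1.85 ± 0.25 (SE, adjusted p = 0.00296). The part of macrophage RNA in it was not tested. Of 17 other fatty acid and lipid synthesis genes, 4 were higher and 3 lower in spleen, and 4 were higher and 0 lower in TCL1-192 than in wild type peritoneum. Dgat2, which makes triglyceride, was higher in both, by 0.96 ± 0.19 in spleen (SE, adjusted p = 0.0114) and by 2.09 ± 0.24 against wild type (SE, adjusted p = 0.000985). Mcat, of mitochondrial fatty acid synthesis, was 1.28 ± 0.16 higher than in wild type (SE, adjusted p = 0.00165).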

How the data were processed

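RNA of the 12 samples was hybridised to Illumina bead arrays after Trizol extraction and cleaning on RNeasy columns, with cRNA labelled through the Ambion MessageAmp kit, per the labels' protocols. The deposited table held non-normalized intensity values for 45281 probes with a detection p-value for each, per the file headers. A second table deposited by the authors held intensity values already normalized to equal quantiles, and served as an alternative only. The sources used here do not give export software, chips or genome build.

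In R 4.3.3 with limma 3.58.1, signals were passed through neqc (background from detection p-values, offset 16, quantile normalization, log2). Probes detected (p under 0.05) on at least 2 arrays were kept (18100), and the brightest kept probe stood for a symbol, giving 13190 genes. All 12 arrays entered 1 linear model with a mean for each of 8 groups (4 residual degrees of freedom, 3.13 prior degrees of freedom). Contrasts weighed PtC classes equally, and two-sided p-values were adjusted by Benjamini-Hochberg over all genes, with 0.05 as threshold. Groups of 1 array were assumed to vary like the replicated TCL1-192 groups. Those groups did not vary alike: the SD between arrays of a group, pooled over genes, was 0.55 in PtC- peritoneum. It was 0.21 to 0.30 in the other replicated groups. Leaving out either PtC- peritoneal array takes the spread of that pair out of the model. The labels name no animals, so p-values measure a spread that may be technical, and the number of arrays limits the precision. SD is over arrays and SE is that of the model.

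The genes, branches and marker lists were chosen with earlier results of these data known. Per-array values are given for up to 4 called genes of a branch, always for Srebf1, Srebf2 and Insig1, and for the 2 highest moderated t where none was called. Other uncalled genes with values and the array that stood apart were singled out after values were seen, as was the fit on single probes. Alternatives were a normexp correction (offset 50) with median centring, the authors' table, a stricter and no filter on dim probes, the mean of a symbol's probes, an intensity trend in the prior, array weights, a replicate block, and leaving out each TCL1-192 array. The model was tested on simulated data. Promoter windows and current symbols came from RefSeq.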

Additional observations from a re-analysis of the deposited data

How the results depend on the processing

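Over 16 alternatives for each of 6 comparisons, and with single probes fitted, 84 counts of members called stayed within 1.5 times the reported count and 18 did not, and no gene's called difference changed sign. With normexp and median centring the counts were 4 for TCL1-192 against wild type, 1 for young TCL1 against wild type and 1 for TCL1-192 against young TCL1. Of all genes, 25.7%, 1.44% and 20.3% were called there. This setting moved the median of all genes to 0.14 in spleen against peritoneum, -0.12 in TCL1-192 against wild type and -0.13 in TCL1-192 against young TCL1. Its calls over all genes split into 3060 higher and 537 lower (reported fit 2051 and 1465), 734 and 2652 (1561 and 2052), and 498 and 2180 (1047 and 1547) in these 3 comparisons. For young TCL1 against wild type, members called were 2 with the authors' table and 2 with the intensity trend, and 1 each with array weights and the replicate block, against 0 as reported. Of all genes, 2.89%, 2.69%, 2.79% and 1.27% were called in these settings, against 1.52% as reported. With array weights, the arrays of a pair get equal weight, so this setting cannot set apart the raised-background array from its partner. Leaving out TCL1-192 arrays in turn gave 4 to 13 members called for spleen against peritoneum, 5 to 13 for TCL1-192 against wild type, 0 to 1 for young TCL1 against wild type, 1 to 11 for TCL1-192 against young TCL1, 0 to 4 for PtC+ against PtC- and 0 to 7 for its difference between tissues. The highest counts (for young TCL1 against wild type tied with the fit without replicate 2) came without PtC- peritoneum replicate 1, which leaves the raised-background array as the only PtC- peritoneal one, and all genes called numbered 5953, 6048, 504, 5328, 1533 and 1644. Without PtC- peritoneum replicate 2, the raised-background array, the 7 genes called in spleen against peritoneum kept their direction. Their log2 differences then ran from -1.17 for Insig1 to 1.99 for Abcg1. Lowest counts over all genes were 1817, 2521, 59, 1640, 0 and 0. Replicate numbers recur across the 4 TCL1-192 groups, but the labels do not say that a number marks a shared animal, and with 2 numbers the pairing was not used. Differences between replicates 2 and 1 correlated at 0.05 to 0.26 between groups. With the replicate block, the members called were 7, 7, 1, 4, 0 and 0 in the 6 comparisons, against 7, 7, 0, 3, 0 and 0 without it. Shares of all genes called were 29.4%, 30.3%, 1.27%, 22.4%, 0% and 0% with the block, against 26.7%, 27.4%, 1.52%, 19.7%, 0% and 0% without it. Signal over background limits Srebf1, Acss2, Sc5d and Fasn, which were detected on 3 to 5 of the 12 arrays.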

Other observations

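Of 12 genes of fatty acid oxidation, the route opposite to synthesis, 0 passed between spleen and peritoneum in limma's test (26.7% of all genes did), 1 passed between TCL1-192 and wild type peritoneum (27.4%) and 2 passed between TCL1-192 and young TCL1 peritoneum (19.7%). Their median log2 differences were -0.10, 0.33 and 0.29 in these comparisons, against -0.02, 0.03 and 0.01 over all genes. Acaa2, the thiolase of the last mitochondrial step, was higher in TCL1-192 peritoneal cells by 0.79 ± 0.21 against wild type (SE, adjusted p = 0.0318) and by 1.26 ± 0.21 against young TCL1 (SE, adjusted p = 0.00765). Etfb, which passes on electrons from the pathway, was higher against young TCL1 by 0.71 ± 0.19 (SE, adjusted p = 0.0419).

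The array lists malic enzyme under the older symbol Mod1, which RefSeq gives as a synonym of Me1. Its probe was below background on all 12 arrays, so it adds no level for that enzyme. Nsdhl, a sterol dehydrogenase, had 4 kept probes, and the 1 used was detected on 8 arrays.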
